A study of Mus musculus with 6 samples.

Results

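The interferon-stimulated genes and nucleic acid sensors of mouse Th17 cells were compared between PDH knockout and WT cells. PDH is pyruvate dehydrogenase, the mitochondrial complex that links glycolysis to the citrate cycle by making acetyl-CoA. The set is a list of 45 named genes, found in the count table by matching unversioned Ensembl gene IDs to mouse symbols. Of these, 43 were measured and tested among 15452 genes in all, and Rsad2 and Ifi44 were not analysed here. The knockout group is 3 libraries from mice with floxed alleles and CD4 Cre, a recombinase driven by the promoter of the T cell gene Cd4. The WT group is 3 libraries from mice with the same floxed alleles and no Cre. Both groups were naive CD4+ T cells taken from lymph nodes and spleen with magnetic beads, then kept for 3 days on bound anti-CD3 (5 µg/mL) with anti-CD28 (1 µg/mL), IL-6 (30 ng/mL), TGFβ (2 ng/mL) and anti-IFNγ (5 µg/mL), an antibody that blocks the T cell interferon. Since Cre came with the knockout alone, its own effect and that of the deletion cannot be told apart. The titles spell the floxed locus PHD and the genotype labels PDH, the floxed gene itself is not named, and the labels used here do not state the age or strain of the mice or whether replicates came from separate animals, so p-values measure the spread between these libraries. Pdha1, which encodes the E1 alpha subunit of PDH, was at 198, 193 and 186 CPM in knockout libraries and 256, 236 and 251 CPM in WT libraries (-0.36 ± 0.06, adjusted p = 0.000871), and Pdhb, the E1 beta subunit gene, did not pass (adjusted p = 0.063). Dlat, the E2 subunit gene, was at 50.1, 50.7 and 52.2 CPM in knockout libraries and 84.0, 83.3 and 78.1 CPM in WT libraries (-0.68 ± 0.06, adjusted p = 3.55e-05). Counts over a whole gene do not show the loss of an exon.

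Interferons are cytokines that alert cells to viruses. Type I interferons bind a receptor made of IFNAR1 and IFNAR2, whose Janus kinases activate STAT proteins, STAT2 among them. With IRF9 these bind the interferon-stimulated response element (ISRE) in the promoters of many antiviral genes, while IFNγ acts through its own receptor and the gamma-activated site (GAS). Inside the cell, RIG-I and MDA5 sense viral RNA through the adaptor MAVS, and cGAS senses cytosolic DNA through STING. Both routes meet at the kinase TBK1 and the transcription factors IRF3 and IRF7, which switch on interferon genes. T cells show a low basal expression of many of these genes without infection.

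Values are TMM-scaled CPM (counts scaled to a common library size and corrected for library composition) in knockout replicates 1, 2 and 3 and then in WT replicates 1, 2 and 3. Each change is a log2 fold change (knockout over WT) with its SE. Adjusted p values are from edgeR's quasi-likelihood test, Benjamini-Hochberg adjusted over 15361 tested genes, and a gene was called at an adjusted p under 0.05. CPM are not corrected for gene length and are not compared between genes. Total counts lay between 33802154 and 40407124 per library. Knockout replicate 2 stood apart in its counts, with a chi-square per degree of freedom of 156.29 and 145.79 against the other knockout libraries, where these differed from each other by 30.59. Summed over 17 B cell markers, the level was 244, 372 and 591 CPM in knockout libraries and 117, 225 and 104 CPM in WT libraries (by library totals). Cd79a, which encodes a signalling subunit of the B cell antigen receptor, was at 0.431, 4.92 and 8.37 CPM in knockout libraries and 0.373, 2.84 and 0.198 CPM in WT libraries, so knockout replicate 1 and WT replicates 1 and 3 held little of it. Cd74, the invariant chain of MHC class II and the most abundant of these markers, was at 167, 151 and 245 CPM in knockout libraries and 38.2, 59.5 and 37.3 CPM in WT libraries. Without Cd74 the other 16 markers summed to 77.1, 222 and 346 CPM in knockout libraries and 78.9, 165 and 66.2 CPM in WT libraries, which overlap. In bulk RNA, more cells of a type and more RNA per cell cannot be told apart. T cell markers summed to 2565, 2494 and 2727 CPM in knockout libraries and 3059, 3057 and 3081 CPM in WT libraries, and all 8, like all 10 Th17 markers, had counts in every library.

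The following promoter stretches are shown because their genes moved in opposite directions while sharing the ISRE core. They come from RefSeq (build GRCm38.p6), read 5′ to 3′ on the gene's strand, with each match to the ISRE core in capitals. The core was taken as GAAA, any 2 bases and GAAA again, on either strand, and overlapping matches run together. The first 4 belong to genes that rose in knockout and the last 3 to genes that fell. Of these 3, Bst2 was called only at the threshold (edgeR adjusted p = 0.0497), and its call was lost with any library left out. Up to 250 bases upstream of the start are given, or for Ifitm3 and Ddx58, whose matches lie just after the start, the site alone.
Ifit1, chr19:34640639-34640888, plus strand: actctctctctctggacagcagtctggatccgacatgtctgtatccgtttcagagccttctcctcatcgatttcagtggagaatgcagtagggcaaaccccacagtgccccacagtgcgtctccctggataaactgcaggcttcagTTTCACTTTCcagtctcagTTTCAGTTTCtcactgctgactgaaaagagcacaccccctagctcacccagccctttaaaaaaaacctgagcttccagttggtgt
Isg15, chr4:156200819-156201068, minus strand: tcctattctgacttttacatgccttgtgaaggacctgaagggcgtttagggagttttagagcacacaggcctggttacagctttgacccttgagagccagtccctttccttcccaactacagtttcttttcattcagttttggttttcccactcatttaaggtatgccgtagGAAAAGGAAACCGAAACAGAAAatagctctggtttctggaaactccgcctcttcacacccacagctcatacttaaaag
Oas1a, chr5:120907526-120907775, minus strand: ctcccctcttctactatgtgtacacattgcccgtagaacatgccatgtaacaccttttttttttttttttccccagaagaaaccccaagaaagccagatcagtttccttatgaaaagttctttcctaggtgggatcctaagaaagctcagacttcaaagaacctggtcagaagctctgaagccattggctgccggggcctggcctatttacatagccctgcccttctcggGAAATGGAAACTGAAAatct
Gbp2, chr3:142620413-142620662, plus strand: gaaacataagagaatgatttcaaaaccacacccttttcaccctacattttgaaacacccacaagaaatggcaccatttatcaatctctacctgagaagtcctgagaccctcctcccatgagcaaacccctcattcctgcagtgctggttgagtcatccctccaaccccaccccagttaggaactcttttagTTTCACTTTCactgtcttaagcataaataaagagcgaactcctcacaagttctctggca
Bst2, chr8:71537473-71537722, minus strand: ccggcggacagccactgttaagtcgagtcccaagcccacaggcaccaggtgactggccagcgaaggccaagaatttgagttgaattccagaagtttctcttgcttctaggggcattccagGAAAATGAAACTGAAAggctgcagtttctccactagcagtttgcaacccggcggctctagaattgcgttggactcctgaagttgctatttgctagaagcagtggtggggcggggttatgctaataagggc
Ifitm3, chr7:141010715-141010742, minus strand: GAAAAGGAAActtctgaGAAACCGAAAc
Ddx58, chr4:40239814-40239823, minus strand: TTTCGATTTC
Of the 45 listed genes, 36 had a promoter window of 300 bases (250 before and 50 after the start), and 16 of these (44.4%) held the ISRE core, against 3.44% of all 32851 windows and 3.79% of tested genes with a window. Split by the test, the core was in 6 of 13 genes that rose, 3 of 6 that fell and 6 of 15 that were not called. The GAS core TTCNNNGAA, which reads the same on both strands, was in 3 of 13 genes that rose, 5 of 6 that fell and 5 of 15 not called, and in 8.3% of all windows. A match describes the letters and does not show binding.

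Of the 43 members tested, 17 rose, 7 fell and 19 were not called. Among all tested genes 47.6% were called, 23.1% as higher and 24.5% as lower, beside 55.81%, 39.53% and 16.28% of the members. Without knockout replicate 2, the library that stood apart, 15 members rose and 6 fell. With upper-quartile scaling 19 members rose and 5 fell, and over all genes the higher calls made up 59.95% of calls in place of 48.53%. The median log2 fold change was 0.18 over the members and 0.01 over all tested genes. Knockout libraries lay wholly above WT libraries in 17 members (28.8% of all tested genes) and wholly below in 7 (29.4%), so 24 did not overlap (58.2%). The rises were uneven: 8 members rose at least 2-fold (7.73% of all tested genes), namely Ifit1, Mx1, Rtp4, Oas1a, Xaf1, Irf7, Isg15 and Oasl2, and Ifitm3 alone fell at least 2-fold (2.86% of all tested genes). All of these 9 were among the 14 members with a mean under 5 CPM, a level chosen after the values were seen. Of those 14, 8 rose at least 2-fold. Among all genes under 5 CPM 18.6% did so, and among genes of 5 CPM or more 2.09%, so steep rises were commoner at low counts in the whole table. Each gene in the table has at least 10 counts in at least 3 libraries, and Ifit1, Oasl2, Mx1 and Rtp4 had a WT library under 10 counts and so passed through their knockout values. These 4 are among the 8 that rose at least 2-fold. Of the other 39 members, 13 rose (33.33%), 4 of them at least 2-fold, and 7 fell (17.95%). The shares over all tested genes were not restricted in this way.

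**Figure D1:**
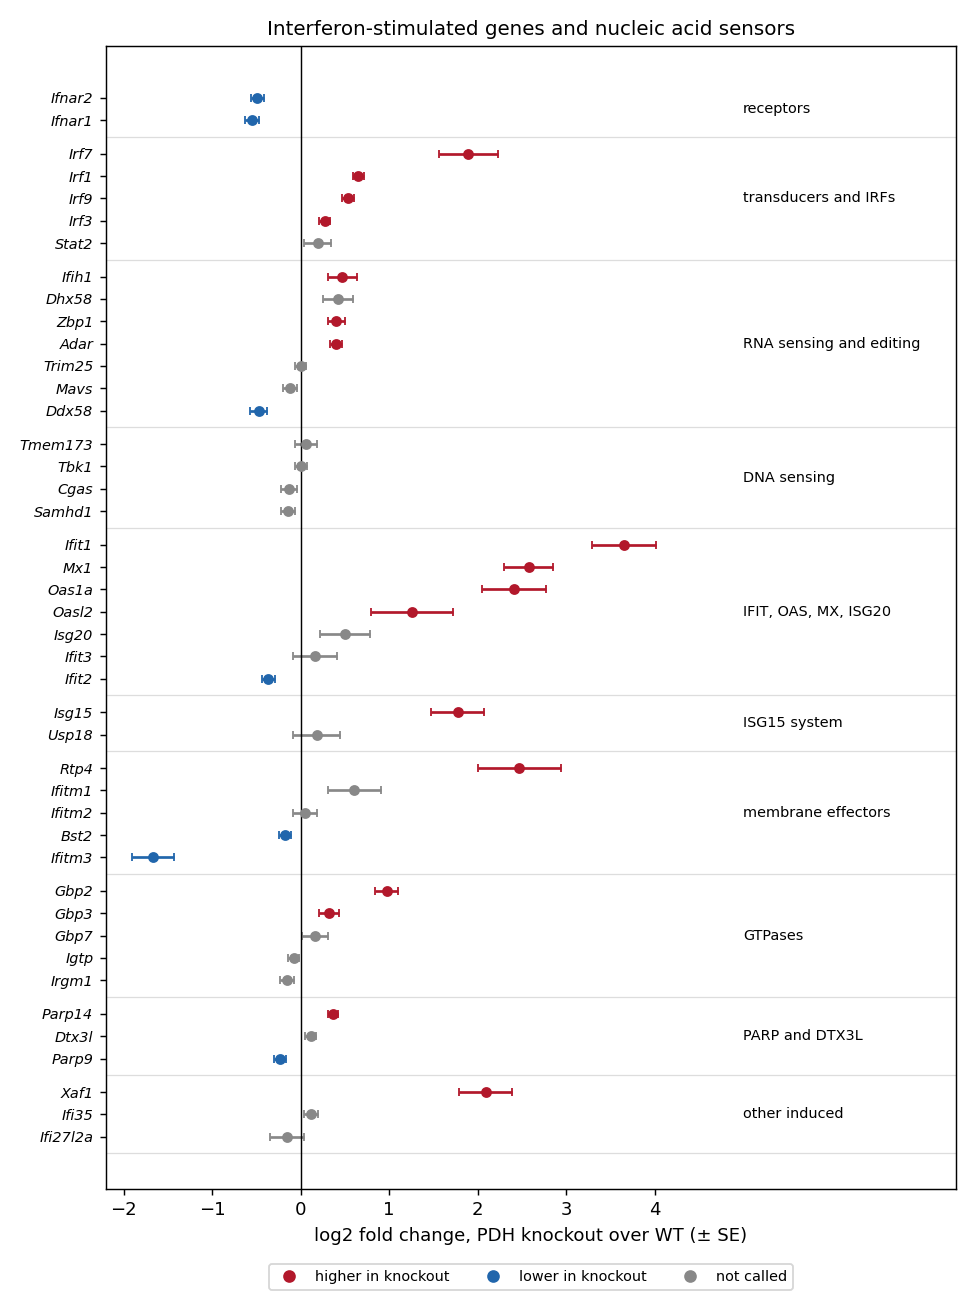
Log2 fold change of knockout over WT (x axis, ± SE, 3 libraries a group) for each of the 43 tested members, grouped by role. Rises above 1 on the log2 scale are seen in 8 genes, mostly antiviral effectors, both receptor genes lie left of 0, and the 4 DNA sensing genes lie near 0.

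**Figure D2:**
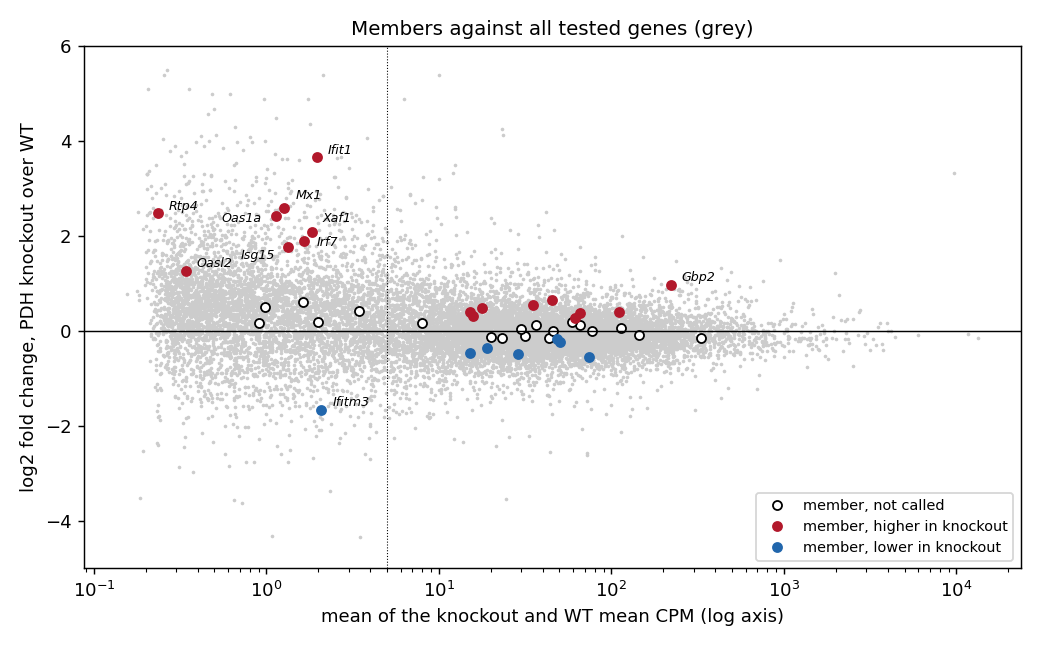
Mean CPM (x axis, log scale, mean of the 2 group means) against log2 fold change (y axis) for all tested genes (grey) and the members (red higher, blue lower, open circles not called), with a dotted line at 5 CPM; 6 genes lie beyond the plotted range of -5 to 6. The members with the steepest changes all lie left of the dotted line, where the grey cloud is also widest.

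Both genes of the type I interferon receptor fell. Ifnar1 (ENSMUSG00000022967.14), the subunit that recruits the kinase TYK2, was at 58.5, 59.9 and 61.5 CPM in knockout libraries and 91.2, 77.3 and 94.9 CPM in WT libraries (-0.55 ± 0.08, adjusted p = 0.000481). Ifnar2 (ENSMUSG00000022971.19), the high-affinity subunit, was at 23.9, 24.3 and 23.5 CPM in knockout libraries and 33.6, 31.9 and 35.2 CPM in WT libraries (-0.49 ± 0.07, adjusted p = 0.000474). In both genes every knockout library lay below every WT library and the knockout values were close together. Both calls held whichever library was left out (adjusted p up to 0.00311 and 0.0034). The IFNγ receptor genes moved the same way. Ifngr1, its ligand-binding chain, was at 31.2, 31.2 and 30.4 CPM in knockout libraries and 59.5, 53.6 and 60.4 CPM in WT libraries (-0.90 ± 0.07, adjusted p = 2.07e-05). Ifngr2, its signalling chain, was at 26.2, 31.9 and 31.5 CPM in knockout libraries and 43.7, 39.6 and 45.8 CPM in WT libraries (-0.53 ± 0.09, adjusted p = 0.0014). Il10rb, a chain shared by the IL-10 and lambda interferon receptors, fell by 0.49 on the log2 scale (adjusted p = 0.000666). Ifnlr1, the specific lambda receptor chain, had 25, 38 and 31 counts in knockout libraries and 15, 0 and 11 counts in WT libraries and was not called (adjusted p = 0.0644). Thus 5 of 6 interferon receptor subunit genes fell, beside 24.5% of all tested genes. Of these, Ifnar1, Ifnar2, Ifngr2 and Il10rb share chromosome 16, and Ifngr1 lies on chromosome 10.

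Below the receptors, 4 of 5 transcription factor genes rose, beside 23.1% of all tested genes, and Stat2 was not called. Irf1 (ENSMUSG00000018899.18), a factor induced by interferons, was at 53.7, 57.4 and 54.9 CPM in knockout libraries and 34.0, 35.6 and 36.3 CPM in WT libraries (0.65 ± 0.06, adjusted p = 5.97e-05). Irf9 (ENSMUSG00000002325.16), the DNA-binding partner of the STAT proteins in type I signalling, was at 41.0, 39.4 and 44.0 CPM in knockout libraries and 29.3, 27.4 and 29.2 CPM in WT libraries (0.53 ± 0.07, adjusted p = 0.000317). In both, the knockout range lay wholly above the WT range. Irf3, the constitutive factor activated by TBK1, was at 69.8, 65.5 and 67.3 CPM in knockout libraries and 54.5, 59.7 and 53.6 CPM in WT libraries, a smaller rise (0.27 ± 0.06, adjusted p = 0.0068). Irf7 (ENSMUSG00000025498.16), the interferon-induced factor that amplifies interferon genes, was far steeper, at 2.43, 1.98 and 3.40 CPM in knockout libraries and 0.703, 0.995 and 0.395 CPM in WT libraries (1.90 ± 0.34, adjusted p = 0.00158). These are 98, 69 and 120 counts in knockout libraries and 26, 38 and 16 counts in WT libraries. Stat2, a transducer of type I signalling, overlapped between groups at 61.9, 59.3 and 68.2 CPM in knockout libraries and 55.5, 43.0 and 66.9 CPM in WT libraries (0.20 ± 0.15, adjusted p = 0.328), with the WT libraries far apart. Of the 6 fits that left out a library, it was called in the one without WT replicate 3 (adjusted p = 0.0368).

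**Figure D3:**
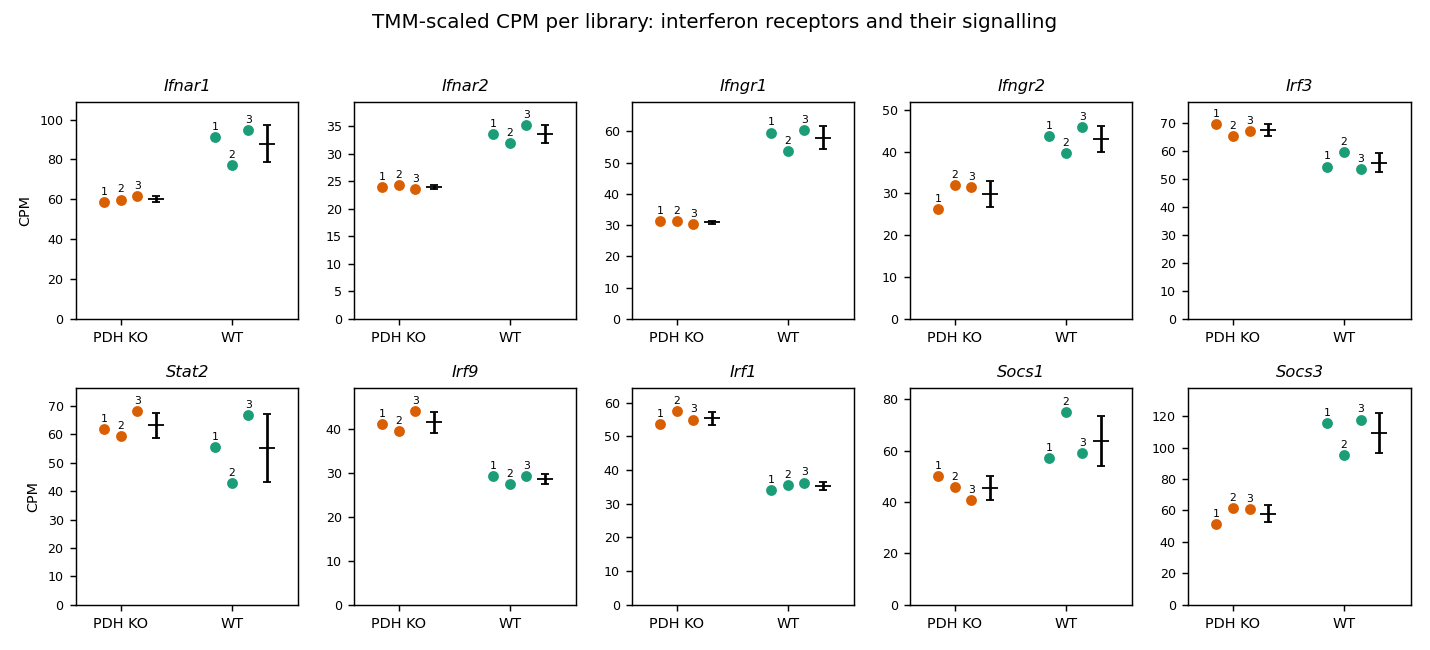
CPM per library (y axis, TMM-scaled; points numbered by replicate, bars mean ± SD, n = 3) for interferon receptor genes, transcription factors and SOCS feedback genes. Knockout points lie below the WT points in Ifnar1, Ifnar2, Ifngr1, Ifngr2, Socs1 and Socs3, above them in Irf3, Irf9 and Irf1, and overlap them in Stat2.

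Of 13 other receptor and JAK-STAT genes, 2 rose (15.38%), the kinase gene Jak2 among them, and 8 fell (61.54%). Among all tested genes 23.1% were called higher and 24.5% lower. The steepest fall was in Socs3, which encodes a feedback inhibitor of IL-6 and STAT3 signalling, at 51.5, 61.4 and 60.7 CPM in knockout libraries and 115, 94.9 and 118 CPM in WT libraries (-0.92 ± 0.10, adjusted p = 0.00013). Socs1, the feedback inhibitor of interferon receptors, also fell (-0.48 ± 0.12, adjusted p = 0.00888) with groups that did not overlap. Of 6 other IRF family and partner genes, 3 rose and 2 fell (50% and 33.33%), to be read beside the same shares of all tested genes. Irf2, which competes with IRF1 for its sites, rose by 0.49 (adjusted p = 0.000312) and Irf2bp2, an IRF2 corepressor, by 0.56 (adjusted p = 0.000171). Irf8 (-0.50 ± 0.16) and Irf4 (0.17 ± 0.06) were called with adjusted p = 0.0363 and 0.0497. These calls were not firm: Irf4 lost its call with any library left out (adjusted p from 0.0638 to 0.137) and Irf8 with any WT library (0.0804 to 0.121). Among 10 interferon genes listed, Ifng was the one measured, at 0.718, 1.63 and 0.595 CPM in knockout libraries and 0.270, 0.759 and 0.321 CPM in WT libraries, with overlapping groups (1.11 ± 0.50, adjusted p = 0.0991). Without WT replicate 2 it was called as higher (1.71, adjusted p = 0.0222). The other 9 were not analysed here.

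Of 7 RNA sensing genes, 3 rose (42.86%), 1 fell (14.29%) and 3 were not called. Among all tested genes 23.1% were called higher and 24.5% lower. Adar, the enzyme that edits adenosine in double-stranded RNA, was at 129.7, 115 and 132 CPM in knockout libraries and 98.8, 91.9 and 95.1 CPM in WT libraries (0.40 ± 0.07, adjusted p = 0.00117). Zbp1, which senses Z-form nucleic acid, was at 17.1, 16.7 and 18.0 CPM in knockout libraries and 14.2, 13.2 and 11.7 CPM in WT libraries (0.40 ± 0.10, adjusted p = 0.00738). Neither gene overlapped between groups. The receptors MDA5 and RIG-I went apart. Ifih1, which encodes MDA5, the sensor of long double-stranded RNA, was at 16.3, 24.7 and 20.9 CPM in knockout libraries and 12.7, 17.4 and 14.5 CPM in WT libraries (0.47 ± 0.17, adjusted p = 0.0467). Its lowest knockout library lay inside the WT range, and the call was lost without knockout replicate 2 or 3 or WT replicate 1 or 3 (adjusted p from 0.115 to 0.141). Limma-voom did not call it either. Ddx58 (ENSMUSG00000040296.16), which encodes RIG-I, the sensor of short RNA with a 5′ triphosphate, was at 12.8, 12.3 and 12.9 CPM in knockout libraries and 18.8, 15.9 and 18.1 CPM in WT libraries (-0.47 ± 0.09, adjusted p = 0.00254), with no overlap and the call kept in all 6 fits that left out a library. Dhx58, Mavs and Trim25, which encode the regulator LGP2, the shared adaptor and a ubiquitin ligase that acts on RIG-I, had log2 fold changes of 0.42 ± 0.17, -0.12 ± 0.08 and 0.0011 ± 0.06, with adjusted p = 0.0663, 0.233 and 0.991.

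The DNA sensing genes were not called by edgeR, 0 of 4, and the count was also 0 at an unadjusted p under 0.05, by DESeq2 and by limma-voom. Among all tested genes 47.6% were called by edgeR. Cgas, the DNA sensor that makes cGAMP, was at 20.6, 19.4 and 17.2 CPM in knockout libraries and 20.4, 21.1 and 21.1 CPM in WT libraries (-0.13 ± 0.09, adjusted p = 0.232). Tmem173, which encodes the cGAMP receptor STING, was at 118, 112 and 116 CPM in knockout libraries and 106, 134 and 92.1 CPM in WT libraries (0.06 ± 0.12, adjusted p = 0.722). Its WT libraries were spread on both sides of the knockout ones. Tbk1, the kinase shared by RNA and DNA sensing, was at 46.6, 48.0 and 43.5 CPM in knockout libraries and 43.8, 48.3 and 46.0 CPM in WT libraries (adjusted p = 0.996). Samhd1, a dNTP hydrolase that restricts retroviruses, was at 340.3, 301 and 303 CPM in knockout libraries and 356, 314 and 371 CPM in WT libraries (-0.14 ± 0.08, adjusted p = 0.17). All 4 overlapped between groups, though without WT replicate 2 both Tmem173 and Samhd1 were called (adjusted p = 0.0296 and 0.0441).

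Of 40 other sensing genes, 11 rose (27.5%) and 9 fell (22.5%), close to the 23.1% and 24.5% of all tested genes. Tlr9, the endosomal receptor for unmethylated CpG DNA, was at 1.01, 1.37 and 2.35 CPM in knockout libraries and 0.0811, 0.236 and 0.173 CPM in WT libraries (3.24 ± 0.44, adjusted p = 0.000354). With 3, 9 and 7 counts in WT libraries it passed the deposited filter through its knockout values alone, so its fold is uncertain. Its knockout values had the same order as the summed B cell markers. Its highest WT value was in WT replicate 2, the WT library with the highest sum. Without Cd74 these markers summed to 77.1 CPM in knockout replicate 1 (Ighm alone 61.7 CPM), where Tlr9 was at 1.01 CPM. In WT replicate 2 they summed to 165 CPM (Ighm alone 101 CPM), and Tlr9 was at 0.236 CPM. B cells are known to express Tlr9, and their part in the result was not tested. Ikbke, a kinase related to TBK1, was at 115, 154 and 140.5 CPM in knockout libraries and 73.6, 62.7 and 80.9 CPM in WT libraries (0.92 ± 0.13, adjusted p = 0.000872). Enpp1, which degrades extracellular cGAMP, was at 4.53, 3.92 and 3.74 CPM in knockout libraries and 13.8, 10.5 and 16.2 CPM in WT libraries (-1.73 ± 0.17, adjusted p = 6.13e-05). Each of these genes had groups that did not overlap. Ticam1, the TLR3 adaptor TRIF, fell by 0.67 and Rnaseh2c, a subunit of the enzyme that removes RNA from DNA hybrids, by 0.82 on the log2 scale (adjusted p = 0.000393 and 0.00046).

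The antiviral effectors held the steepest rises. Ifit1 (ENSMUSG00000034459.9), which binds viral RNA that lacks a methylated cap, was at 4.70, 2.55 and 3.65 CPM in knockout libraries and 0.243, 0.445 and 0.173 CPM in WT libraries (3.65 ± 0.36, adjusted p = 7.55e-05). This was 190, 89 and 129 counts in knockout libraries against 9, 17 and 7 counts in WT libraries. The highest value was in knockout replicate 1, which had the lowest B cell marker sum of the knockout libraries. Mx1 (ENSMUSG00000000386.18), a dynamin-like GTPase against influenza that is defective in most laboratory strains and is annotated by RefSeq as a transcribed pseudogene, was at 2.08, 2.12 and 2.35 CPM in knockout libraries and 0.243, 0.498 and 0.346 CPM in WT libraries (2.58 ± 0.28, adjusted p = 0.000103). Its knockout values were nearly level, at 84, 74 and 83 counts in knockout libraries against 9, 19 and 14 counts in WT libraries. Oas1a (ENSMUSG00000052776.11), which makes the 2-5A messenger that activates RNase L, was at 1.11, 2.15 and 2.46 CPM in knockout libraries and 0.486, 0.262 and 0.321 CPM in WT libraries (2.41 ± 0.36, adjusted p = 0.000621). Unlike Ifit1 it was lowest in knockout replicate 1. Oasl2, an OAS-like protein gene, had 27, 10 and 17 counts in knockout libraries and 12, 5 and 6 counts in WT libraries (1.26 ± 0.46, adjusted p = 0.0457). Its groups overlapped, and the call was lost by DESeq2 and without knockout replicate 1 or 3 or WT replicate 2 or 3 (adjusted p from 0.0972 to 0.167).

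Ifit2 (ENSMUSG00000045932.13), a neighbour of Ifit1, fell: it was at 16.4, 17.0 and 16.1 CPM in knockout libraries and 21.2, 21.2 and 21.6 CPM in WT libraries (-0.37 ± 0.07, adjusted p = 0.00299), with tight groups that did not overlap. Ifit3, on the same chromosome, was not called, at 1.01, 1.00 and 0.850 CPM in knockout libraries and 0.756, 0.733 and 1.06 CPM in WT libraries (0.17 ± 0.25, adjusted p = 0.607). The 3 genes on chromosome 19 thus gave a rise, a fall and no call, in the same libraries. Isg20, an exonuclease gene, was not called (0.50 ± 0.29, adjusted p = 0.174).

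**Figure D4:**
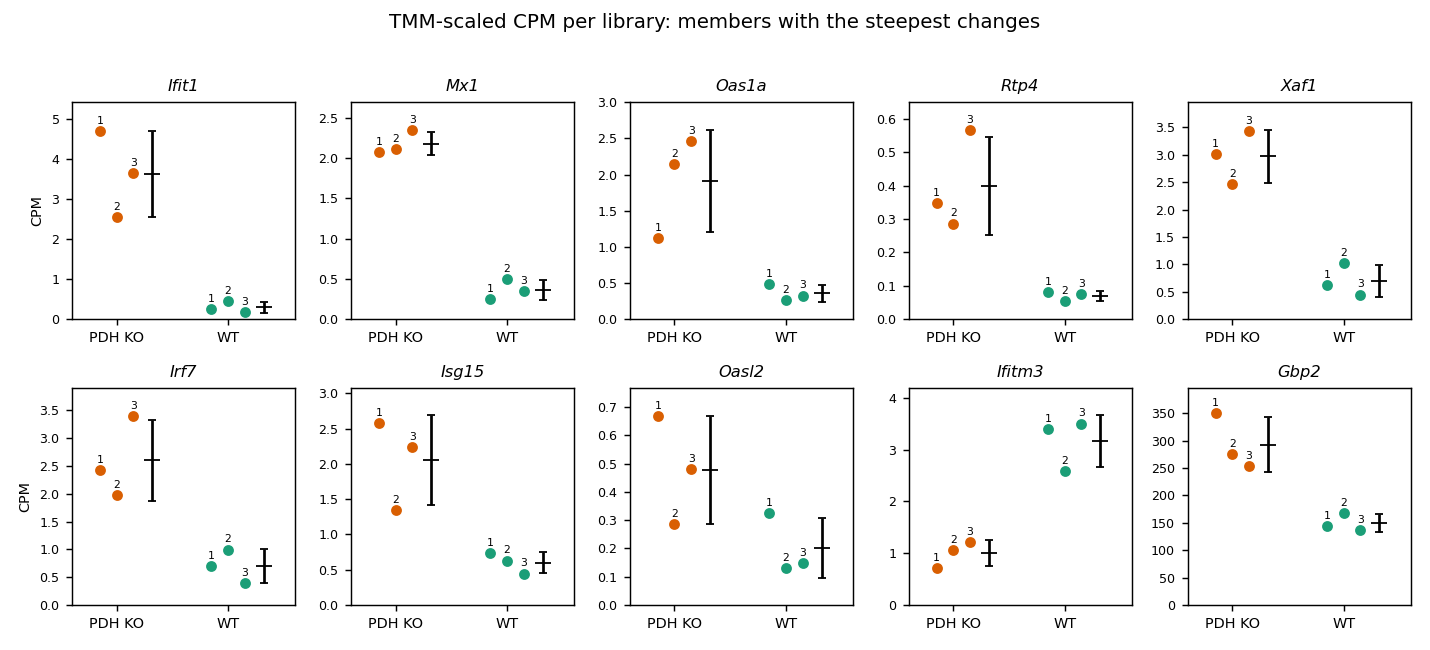
CPM per library (y axis, TMM-scaled; points numbered by replicate, bars mean ± SD, n = 3) for the 9 members that changed at least 2-fold and Gbp2. Knockout points lie wholly above WT points except in Oasl2, where they overlap, and Ifitm3, where they lie below.

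Isg15 (ENSMUSG00000035692.8), the ubiquitin-like modifier, was at 2.57, 1.35 and 2.24 CPM in knockout libraries and 0.730, 0.628 and 0.445 CPM in WT libraries (1.77 ± 0.30, adjusted p = 0.00124). Usp18, which removes ISG15 and restrains IFNAR2, was at 1.93, 2.18 and 2.27 CPM in knockout libraries and 2.51, 1.18 and 1.93 CPM in WT libraries (0.18 ± 0.27, adjusted p = 0.601). The modifier therefore passed and its protease gene did not, with knockout values of Usp18 inside the WT range. Xaf1 (ENSMUSG00000040483.16), an interferon-induced antagonist of XIAP, was at 3.02, 2.46 and 3.43 CPM in knockout libraries and 0.621, 1.02 and 0.445 CPM in WT libraries (2.09 ± 0.30, adjusted p = 0.000474). Ifi35 and Ifi27l2a, also interferon-induced, were not called (0.12 ± 0.08 and -0.15 ± 0.19, adjusted p = 0.27 and 0.555).

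The genes of membrane proteins moved in both directions. Ifitm3 (ENSMUSG00000025492.7), which blocks virus entry from endosomes, was at 0.718, 1.06 and 1.22 CPM in knockout libraries and 3.40, 2.59 and 3.51 CPM in WT libraries (-1.67 ± 0.24, adjusted p = 0.000509). Its neighbours on chromosome 7, Ifitm1 and Ifitm2, were not called (0.61 ± 0.30 and 0.05 ± 0.14, adjusted p = 0.122 and 0.8), and Ifitm1 passed as higher without WT replicate 1 (adjusted p = 0.0214). Rtp4 (ENSMUSG00000033355.7), a receptor chaperone induced by interferon, had 14, 10 and 20 counts in knockout libraries and 3, 2 and 3 counts in WT libraries (2.47 ± 0.47, adjusted p = 0.00221), and WT libraries at or under 3 counts make its fold uncertain. Bst2, which encodes tetherin, an anchor for budding virions, was at 46.2, 45.5 and 44.3 CPM in knockout libraries and 48.5, 50.6 and 54.4 CPM in WT libraries (-0.17 ± 0.06, adjusted p = 0.0497). That call was at the threshold and was lost with each library left out in turn (adjusted p from 0.0563 to 0.144), by DESeq2, by limma-voom and under the 3 other scalings.

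Among the GTPases that attack vacuoles of intracellular microbes, 2 of 3 guanylate-binding protein genes (Gbp2 and Gbp3) rose, and Gbp7 and the immunity-related GTPase genes Igtp and Irgm1 were not called. Of these 5 GTPase genes 40% were thus called higher, beside 23.1% of all tested genes. Gbp2 (ENSMUSG00000028270.13) was at 349.7, 275 and 253 CPM in knockout libraries and 144, 168 and 136 CPM in WT libraries, 1.96-fold higher (0.97 ± 0.13, adjusted p = 0.000892). Gbp3 was at 20.1, 17.0 and 15.2 CPM in knockout libraries and 13.0, 14.4 and 14.5 CPM in WT libraries (0.32 ± 0.11, adjusted p = 0.0401), but its call was lost without knockout replicate 1 or 2 or WT replicate 1 or 3 (adjusted p from 0.0558 to 0.157). Both were highest in knockout replicate 1. Gbp7, Igtp and Irgm1 had log2 fold changes of 0.16 ± 0.15, -0.08 ± 0.06 and -0.15 ± 0.08, with adjusted p = 0.403, 0.306 and 0.151.

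A second cluster of guanylate-binding protein genes on chromosome 5 lies outside the list. All 6 of its measured genes rose by 1.46 to 2.58 on the log2 scale, while the 4 on chromosome 3 ranged from 0.16 to 0.97. The top of that range is Gbp10 and Gbp11, which each had a WT library under 10 counts and passed the deposited filter through their knockout values, and RefSeq annotates Gbp11 as a transcribed pseudogene. The steepest of the cluster that the naming rule took, Gbp6, was at 40.1, 29.9 and 31.4 CPM in knockout libraries and 6.62, 6.60 and 6.20 CPM in WT libraries (2.39 ± 0.12, adjusted p = 4.37e-06). Gbp9 and Gbp8 rose by 1.46 and 1.66 (adjusted p = 2.13e-05 and 7.18e-05). In all 6 of these genes the groups did not overlap. These paralogs are alike in sequence, so how reads were divided among them is uncertain, and the same holds for the OAS and IFIT genes. The cluster was picked out after its values were seen. The OAS genes on chromosome 5 were mixed, with 5 of 7 higher (3 of these, Oas2, Oasl1 and Oasl2, with a WT library under 10 counts), Oas3 lower (-0.58 ± 0.15, adjusted p = 0.00902) and Oas1c not called. Beside the counts for both families, 23.1% of all tested genes were called higher and 24.5% lower.

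**Figure D5:**
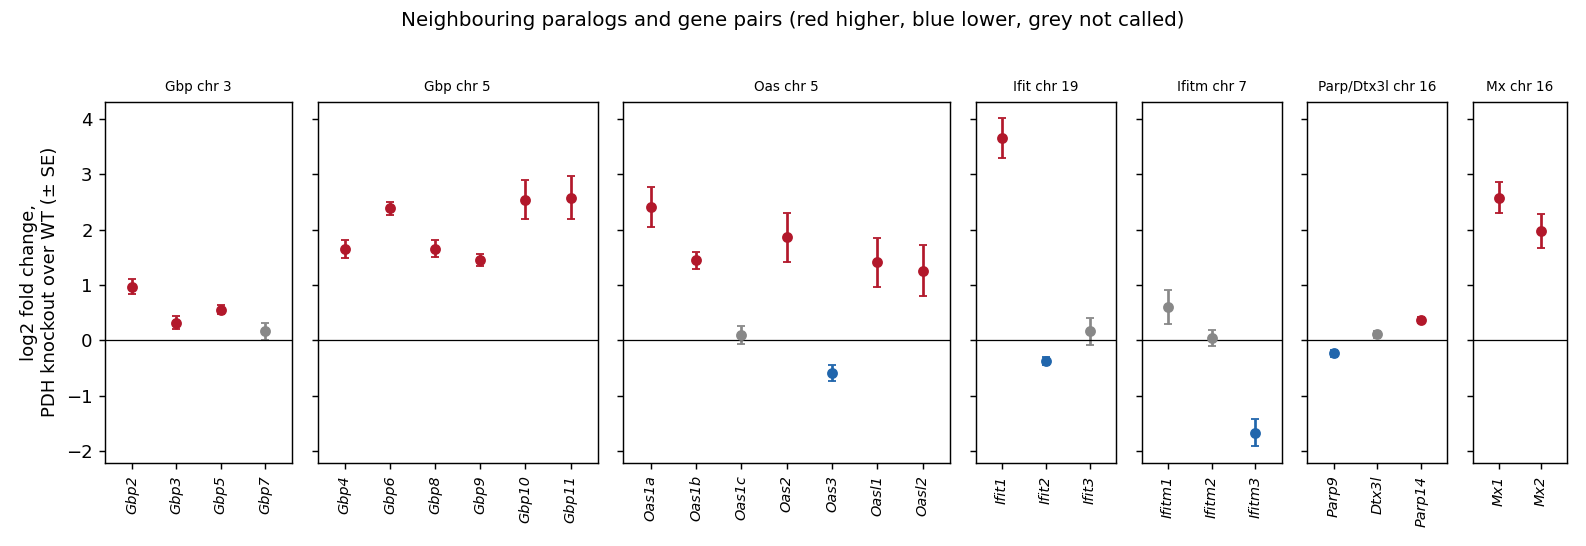
Log2 fold change of knockout over WT (y axis, ± SE) for members and neighbouring relatives, by cluster; red is higher, blue lower and grey not called. The 6 Gbp genes of chromosome 5 all lie above 1, while the Ifit, Ifitm and Oas clusters and the Parp9, Dtx3l and Parp14 genes each hold genes on both sides of 0.

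Parp9, Dtx3l and Parp14 are neighbours on chromosome 16. Parp14, an ADP-ribosyltransferase, was at 73.6, 72.6 and 77.0 CPM in knockout libraries and 56.1, 60.2 and 56.9 CPM in WT libraries (0.37 ± 0.06, adjusted p = 0.0009). Parp9 was at 43.7, 49.6 and 45.1 CPM in knockout libraries and 53.2, 54.9 and 54.4 CPM in WT libraries (-0.23 ± 0.07, adjusted p = 0.0166), a fall whose call was lost without knockout replicate 1 or 3 (adjusted p = 0.0582 and 0.0611) and with upper-quartile scaling. Dtx3l, whose E3 ligase product pairs with PARP9, did not pass (0.11 ± 0.06, adjusted p = 0.16) although its groups did not overlap. The genes of the PARP9 and DTX3L partners therefore gave a fall and no call.

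Of 94 other interferon-stimulated genes measured, 37 rose (39.36%) and 16 fell (17.02%), beside 23.1% and 24.5% of all tested genes, and the median change was 0.20 on the log2 scale. Of the 37, 6 had a WT library under 10 counts and passed the deposited filter through their knockout values. Ly6a, which encodes the surface protein Sca-1, was at 61.7, 68.5 and 59.8 CPM in knockout libraries and 209, 194 and 192 CPM in WT libraries (-1.65 ± 0.07, adjusted p = 1.50e-06). Psmb8, a catalytic subunit of the immunoproteasome, was at 105, 116 and 105 CPM in knockout libraries and 253, 269.9 and 250.5 CPM in WT libraries (-1.25 ± 0.06, adjusted p = 4.37e-06). These falls stood beside the rises of Gbp6, Gbp8 and Gbp9 among the 5 genes with the smallest adjusted p.

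Markers of other cells were read beside these results. The summed B cell markers were 2.71 times as high in knockout as in WT libraries (exact two-sided permutation p = 0.1, the smallest that 3 against 3 allows; adjusted over 8 marker lists, 0.2). On average 16 of 17 markers were higher, but 1 lay wholly above WT, and without Cd74 the ratio was 2.08 (exact permutation p = 0.3). Of 10 plasmacytoid dendritic cell markers, 7 were measured and summed to 55.1 to 91.4 CPM in knockout libraries and 52.2 to 70.0 CPM in WT libraries (exact permutation p = 0.4). Of these 7, 6 had a higher mean in knockout and 1 lay wholly above WT. Pacsin1 was the most abundant, at 26.4, 26.6 and 31.1 CPM in knockout libraries and 27.0, 19.8 and 31.2 CPM in WT libraries. Spib was at 2.21, 14.4 and 20.1 CPM in knockout libraries and 0.426, 3.91 and 0.445 CPM in WT libraries. Siglech, which defines these main producers of type I interferon, was not analysed here. Of 14 dendritic cell and macrophage markers, 11 summed to 10.6 to 20.1 CPM in knockout libraries and 12.4 to 25.3 CPM in WT libraries (exact permutation p = 0.7). The 5 gamma delta T cell markers summed to 8.22 to 11.1 CPM in knockout libraries and 3.83 to 5.72 CPM in WT libraries, and 3 of 7 NK cell markers to 7.34 to 8.67 CPM in knockout libraries and 10.0 to 12.0 CPM in WT libraries (exact permutation p = 0.1 for each). All 5 gamma delta T cell markers lay wholly above WT, with a ratio of 2.01 for their sum. The sums of the 2 CD8 T cell markers (exact permutation p = 0.9) and of the 10 Th17 markers (exact permutation p = 0.3) overlapped between groups. Single Th17 markers moved in opposite directions, which a sum hides: 5 of 10 had a higher mean in knockout, 3 of them wholly above WT. Il17a lay wholly below WT, at 71.5, 55.7 and 62.4 CPM in knockout libraries and 157, 142 and 157 CPM in WT libraries. Cd8b1 also lay wholly below WT. The summed T cell markers were lower in knockout libraries (exact permutation p = 0.1), with 5 of 8 markers wholly below WT and 3 with a higher mean. No list had an adjusted p under 0.2, and the 7 neutrophil markers were not analysed here.

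Among the knockout libraries, 12 of the 43 members were highest in replicate 1, 9 in replicate 2 and 22 in replicate 3, the library with the most B cell markers. Of the 17 that rose, 6 were highest in replicate 1, 2 in replicate 2 and 9 in replicate 3. Leaving out the 3 libraries in which the B cell markers other than Cd74 were raised (knockout replicates 2 and 3 and WT replicate 2) set knockout replicate 1 alone against WT replicates 1 and 3, and it is assumed to vary like them. Cd74 was raised in that knockout library too. With 1 knockout library in that fit, only its log2 fold changes are given. Ifit1 was at 4.49, Mx1 at 2.80, Irf7 at 2.15, Xaf1 at 2.50, Isg15 at 2.14 and Gbp2 at 1.32. Oas1a was smaller there, at 1.47, and Ifitm3 steeper, at -2.26. Ifih1 was at 0.267, Zbp1 at 0.404, Oasl2 at 1.505, Bst2 at -0.153, Rtp4 at 2.119 and Gbp7 at 0.517. With a covariate for B cell RNA (the sum of the 16 markers without Cd74), 16 members rose and 7 fell, with Ifih1 and Bst2 losing their calls and Ifi27l2a gaining one. The part of other cells in these results was not tested.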

How the data were processed

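RNA-seq of Th17 cultures was re-analysed from 3 knockout and 3 WT libraries, grouped by their labels. The table the authors deposited holds expected counts, whole-number estimates for each gene. Salmon, DESeq2 and DESeq are listed, with no version or role, per the submitters' processing notes, and the mRNA kit was a stranded one, per the labels' protocols. The sources used here do not give the genome build or annotation, and coordinates are printed for RefSeq promoters alone. Every deposited gene has at least 10 counts in 3 libraries. Symbols were matched on unversioned IDs to GENCODE M21 (15138 of 15452). Counts were fitted with edgeR 4.0.16 in R 4.3.3: filterByExpr left 15361 genes, followed by TMM scaling and a robust quasi-likelihood F test of genotype, with no other covariate and Benjamini-Hochberg adjustment. The biological coefficient of variation was 13.8%. The fit was tested on simulated counts with known changes. Replicates differed beyond sampling noise (chi-square per degree of freedom at least 25.17). Alternatives were other scalings, DESeq2 1.42.0, limma-voom (limma 3.58.1), other filters, the replicate number as a block, left-out libraries and a minimum change of 1.2-fold. The B cell covariate (without Cd74) and the B cell sum without Cd74 were added after the data were seen. The members and lists were chosen with earlier results of these data known. Up to 4 called members of each role with the smallest adjusted p are given in full, with every member not called among receptors, transcription factors and DNA sensing genes, and up to 5 called genes of each other list. Ifit3, Oasl2, Usp18, Socs1, Jak2, Ifnlr1, Oas3 and Oas1c were named beyond this after their values were seen, as were the gene clusters. Summed markers used CPM by library totals. Promoter windows and plots were made in Python 3.11.15 (matplotlib 3.10.9). Some genes that this rule takes are not reported here.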

Additional observations from a re-analysis of the deposited data

How the results depend on the processing

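Tested against a fold change of 1.2, 11 members rose and 4 fell, 41 of the other pathway genes rose and 18 fell, and 2125 and 1856 of all genes rose and fell. Across the other alternatives 14 to 19 members rose and 5 to 7 fell. Of the 24 called members, 19 kept their call in all 6 fits that left out a library. Direction turned only in members not called. Trim25 was at -0.001 with limma-voom, with the replicate block and without the 3 libraries with raised B cell markers, and at -0.017 with the B cell covariate. That covariate put Tmem173 at -0.021 and Ifitm2 at -0.023. Without the 3 libraries Usp18 was at -0.198 and Ifitm2 at -0.31, and with upper-quartile scaling Igtp was at 0.001. With each library left out in turn, the log2 fold change ran from -0.05 to 0.044 in Trim25, from -0.059 to 0.22 in Tmem173, from -0.036 to 0.038 in Tbk1, from -0.064 to 0.448 in Usp18, from -0.076 to 0.156 in Ifitm2 and from -0.021 to 0.245 in Gbp7. The cause was not tested. Over all tested genes, same-numbered libraries did not deviate together (r = -0.1, 0.09 and -0.26 for replicates 1 to 3). Knockout replicate 1 was closest to WT replicate 3 (r = 0.19) and knockout replicate 3 to WT replicate 1 (r = 0.27). The labels do not state a pairing, and deviations from a mean of 3 libraries cannot exclude one. The filter at 50 counts in 3 libraries leaves fewer genes to test. With the replicate block 16 members rose and 6 fell, with Bst2 and Gbp3 losing their calls, and Ifng was called as higher (1.12, adjusted p = 0.0129). Members under 5 CPM rest on few counts, down to 2 in a library, and p-values cover the spread of 3 libraries a group.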
